A study of Mus musculus with 18 samples.

Results

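Ribosome-bound RNA from endothelial cells of the choroid was compared with that from endothelial cells of the retina, over the 7313 genes that the study's choroid and retina tables both list by gene identifier. The comparison uses the 3 Choroid Positive and 3 Retina Positive libraries, 6 of the 18 libraries in the series, whose counts were normalised together. All mice carried Cdh5(PAC)-cre/ERT2+ and NuTRAP+ and had been given tamoxifen, so every group shares this genotype and this induction. Cdh5(PAC)-cre/ERT2 is a tamoxifen-activated recombinase under the promoter of vascular endothelial cadherin. NuTRAP is a reporter that, after recombination, puts GFP on the ribosomal protein L10a, and an antibody to GFP then pulls down tagged ribosomes with the RNA they carry (Positive fraction). The Input fraction is RNA of the same homogenate from before the pull-down, and the 3 Choroid Input and 3 Retina Input libraries are set beside the Positive values. The design text calls the samples biological replicates, and the labels give no age, sex or number of animals per sample, so the p-values reported reflect variation among these samples alone, part of which could be technical. Which vessels recombined follows from where the Cdh5 promoter is active, and the labels do not say how many other cells also carried the tag.

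The choroid is the vascular layer behind the retina, and its capillary bed, the choriocapillaris, is fenestrated: the endothelium has pores closed by diaphragms, through which fluid and solutes pass to the pigment epithelium and the photoreceptors. The vessels inside the retina are continuous and form the inner blood-retina barrier, with tight junctions, little transcytosis and transporters that carry selected nutrients. Norrin acting through the receptor Fzd4 and beta-catenin is known to maintain that barrier, whereas vascular endothelial growth factor (VEGF) from the pigment epithelium is known to maintain the fenestrated bed.

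The choroid libraries were far shallower than the retina libraries. Choroid Positive libraries held 707501 to 2689658 estimated counts over the shared genes, and Retina Positive libraries held 10447398 to 22231174. Choroid Positive replicate 2 stood apart: 610 shared genes had under 10 counts there, against 55 and 103 in the other choroid replicates, and the ribosomal RNA precursor Rn45s and the gene Lars2 stood at 154814 and 44094 normalised counts per 1000000 (CPM) there, against at most 11106 and 1253 CPM in any other Positive library. Retina replicate 1 also differed from its group in Xist, the X-inactivation transcript, which only the retina table lists: 4.3 CPM in Positive replicate 1, against 192 and 310 CPM in replicates 2 and 3. Pan-endothelial genes, a list of 20 genes that mark endothelium of any vessel, took 2.40%, 1.64% and 2.38% of shared-gene counts in the Choroid Positive libraries and 0.404%, 0.418% and 0.869% in the Retina Positive libraries. The same genes took 0.350% ± 0.0906 of Choroid Input and 0.0114% ± 0.00141 of Retina Input (SD, n = 3 each), so both pull-downs held more endothelial RNA than their Inputs and the choroid one held the larger share. Fewer endothelial cells and less RNA per cell cannot be told apart in such bulk libraries.

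Because of this difference in endothelial share, each gene is given on 2 scales. The first uses TMM scaling, which sets the bulk of genes equal between libraries. The second sets the median of the 20 pan-endothelial genes equal, and the median log2 difference of all tested genes goes from -0.02 to -2.41. Under TMM scaling, 1998 of 7312 tested genes were higher in Choroid Positive (27.3%) and 1871 were lower (25.6%), or 52.9% in either direction, at a Benjamini-Hochberg adjusted p under 0.05 by edgeR's quasi-likelihood test. The 3 Choroid Positive values lay above all 3 Retina Positive values for 30.6% of tested genes and below them for 32.3%. At least 4-fold differences were found for 571 of the genes that were higher and 467 of those that were lower. Without Choroid Positive replicate 2 the counts were 2108 higher and 2112 lower. Under the pan-endothelial scaling, 141 genes were higher (1.93%) and 6216 lower (85%), and 928 of the genes higher under TMM were lower on this scale. All 1871 genes lower under TMM were also lower there. Counts of called list members given below stand beside these shares of all tested genes.

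Each difference was then read beside the pull-down, which enriches RNA of tagged cells. A gene counts as pulled down here when all 3 Positive values exceeded all 3 Input values of that tissue with a mean at least 2-fold higher. The same Positive values enter the test between tissues. Shares of pulled-down genes among called genes are therefore in part fixed in advance and are given as description only. Of the 1998 genes higher in Choroid Positive, 651 were pulled down in choroid, against 788 of all 7312 tested genes. Of the 1871 that were lower, 36 were pulled down in retina, against 804 of all tested genes. Most of these 804, 634 in all, were themselves higher in Choroid Positive under TMM. Another 271 genes pulled down in retina are listed in the retina table alone and were not tested. The count of 36 therefore leaves out genes too low in choroid to be listed there. In the Inputs, 1674 of the higher genes and 1511 of the lower ones had all choroid values on the same side of all retina values as in the Positive fractions. Opposite sides were found for 69 of the higher and 122 of the lower genes. Over all tested genes, the Choroid Input values lay above all Retina Input values for 2797 and below them for 2881. The genes described first are those pulled down in the tissue where they were higher.

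Plvap, which forms the diaphragms of fenestrae and caveolae (Entrez 84094, chromosome 8, 71497753 to 71511769 on mm10, minus strand), had the largest difference of these. Its level was 10056, 9899 and 8580 CPM in Choroid Positive, against 20.7, 16.0 and 18.3 CPM in Retina Positive. All choroid libraries lay far above all retina libraries, a log2 difference of 9.02 ± 0.39 (SE), or 518-fold (edgeR adjusted p = 1.69e-06). Relative to pan-endothelial genes it was 6.62 ± 0.61, and its log2 ratio of Positive over Input was 3.11 in choroid and 0.63 in retina.

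Igfbp3, a secreted binding protein of insulin-like growth factors, stood at 4034, 4135 and 3346 CPM in Choroid Positive, against 53.3, 66.7 and 116 CPM in Retina Positive. The groups did not overlap, at a log2 difference of 5.61 ± 0.38 (adjusted p = 8.49e-06). Unlike Plvap, it was pulled down in both tissues, with log2 Positive over Input of 3.07 in choroid and 4.81 in retina. Emcn, endomucin, a mucin of capillary and venous endothelium, showed 1917, 1968 and 1952 CPM in Choroid Positive, against 56.8, 61.3 and 116 CPM in Retina Positive. Its choroid libraries lay close together and far above the retina libraries, with a log2 difference of 4.64 ± 0.33 (adjusted p = 1.11e-05).

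Of the list of fenestrated endothelium and choriocapillaris genes, 9 of 12 were tested, and 8 were higher in Choroid Positive with none lower. Their median log2 difference was 3.72, against -0.02 for all tested genes, and 1.45 relative to pan-endothelial genes, against -2.41. On that second scale 5 members were higher and 1 was lower. The member that did not pass under TMM was Car4, a membrane carbonic anhydrase, at 78.7, 25.0 and 45.3 CPM in Choroid Positive and 48.3, 36.5 and 71.8 CPM in Retina Positive.

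The receptors for VEGF were higher in choroid to unequal degrees. Kdr, the main signalling receptor (VEGFR2), had 4261, 2784 and 4064 CPM in Choroid Positive and 222, 217 and 418 CPM in Retina Positive, a log2 difference of 3.70 ± 0.36 (adjusted p = 4.92e-05). The co-receptor Nrp1 had 2052, 1942 and 1833 CPM in Choroid Positive and 63.1, 80.0 and 122 CPM in Retina Positive, a difference of 4.46 ± 0.30 (adjusted p = 8.47e-06). Both remained higher relative to pan-endothelial genes, at 1.45 ± 0.46 and 2.19 ± 0.45. Flt1, the high-affinity receptor often described as a decoy, differed by 1.34 ± 0.34 under TMM (adjusted p = 0.00959) and by -0.88 ± 0.46 on the pan-endothelial scale, where it did not pass. Of the 8 tested genes of the VEGF axis, 6 were higher and 1 lower under TMM, with a median of 2.04 that turns to -0.22 on the pan-endothelial scale. The member that was lower was the ligand gene Vegfb, at -0.99, and it lost its call without Choroid Positive replicate 3 (-0.93), Retina Positive replicate 1 (-0.84) or Retina Positive replicate 2 (-0.99).

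**Figure D1:**
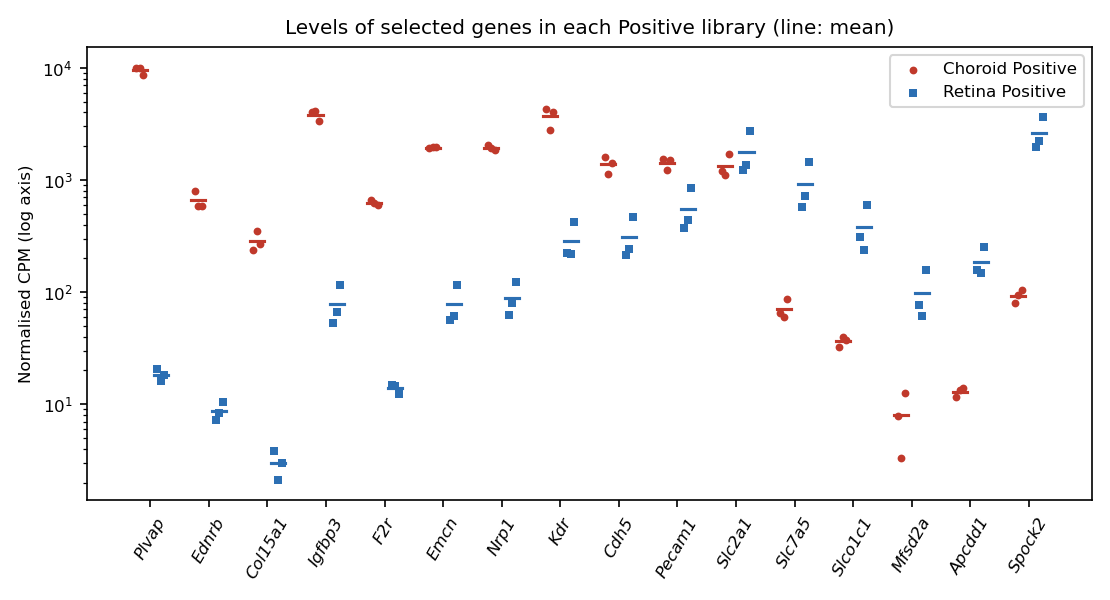
Levels of selected genes in each Choroid Positive library (circles, left) and Retina Positive library (squares, right), in normalised CPM on a log axis with lines at the means. Plvap stands at 8580 to 10056 CPM in Choroid Positive and 16.0 to 20.7 CPM in Retina Positive, the values of Slc2a1 overlap, and Slc7a5, Slco1c1, Mfsd2a, Apcdd1 and Spock2 lie lower in every Choroid Positive library than in every Retina Positive library.

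Other genes pulled down in choroid with large differences were not on that list. Cd24a, a small sialoglycoprotein of the cell surface, had 2294, 1755 and 2056 CPM in Choroid Positive and 17.4, 20.8 and 26.9 CPM in Retina Positive. The log2 difference was 6.55 ± 0.29 (adjusted p = 1.80e-06), with no overlap of the groups; near-identical copies of this gene could share its reads, so the value is uncertain. Col15a1, a basement membrane collagen, had 239, 350 and 269 CPM in Choroid Positive and 3.80, 2.11 and 2.96 CPM in Retina Positive. Its log2 difference was 6.55 ± 0.29 (adjusted p = 1.69e-06), and its log2 Positive over Input was 2.07 in choroid and -0.26 in retina.

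F2r, the thrombin receptor PAR1, had 658, 624 and 602 CPM in Choroid Positive and 14.8, 14.6 and 12.2 CPM in Retina Positive, a log2 difference of 5.50 ± 0.20 (adjusted p = 1.69e-06). Its replicates lay close together in both groups. The water channel gene Aqp1 had 4385, 2809 and 4217 CPM in Choroid Positive and 152, 175 and 129 CPM in Retina Positive, a difference of 4.64 ± 0.30 (adjusted p = 7.80e-06). It was pulled down in choroid, at 2.89 over Input, and was below Input in retina, at -0.56. The lipid phosphatase gene Ppap2a, the adhesion molecule gene Mcam (CD146), the transcriptional corepressor gene Ripply3, the GTPase gene Gimap4, the matrix gene Emilin1 and Fam174b differed by 5.64, 4.92, 5.24, 5.22, 4.75 and 5.22 on the log2 scale under TMM. None of their groups overlapped. On the pan-endothelial scale all 6 remained higher, at 2.40 to 3.36.

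**Figure D2:**
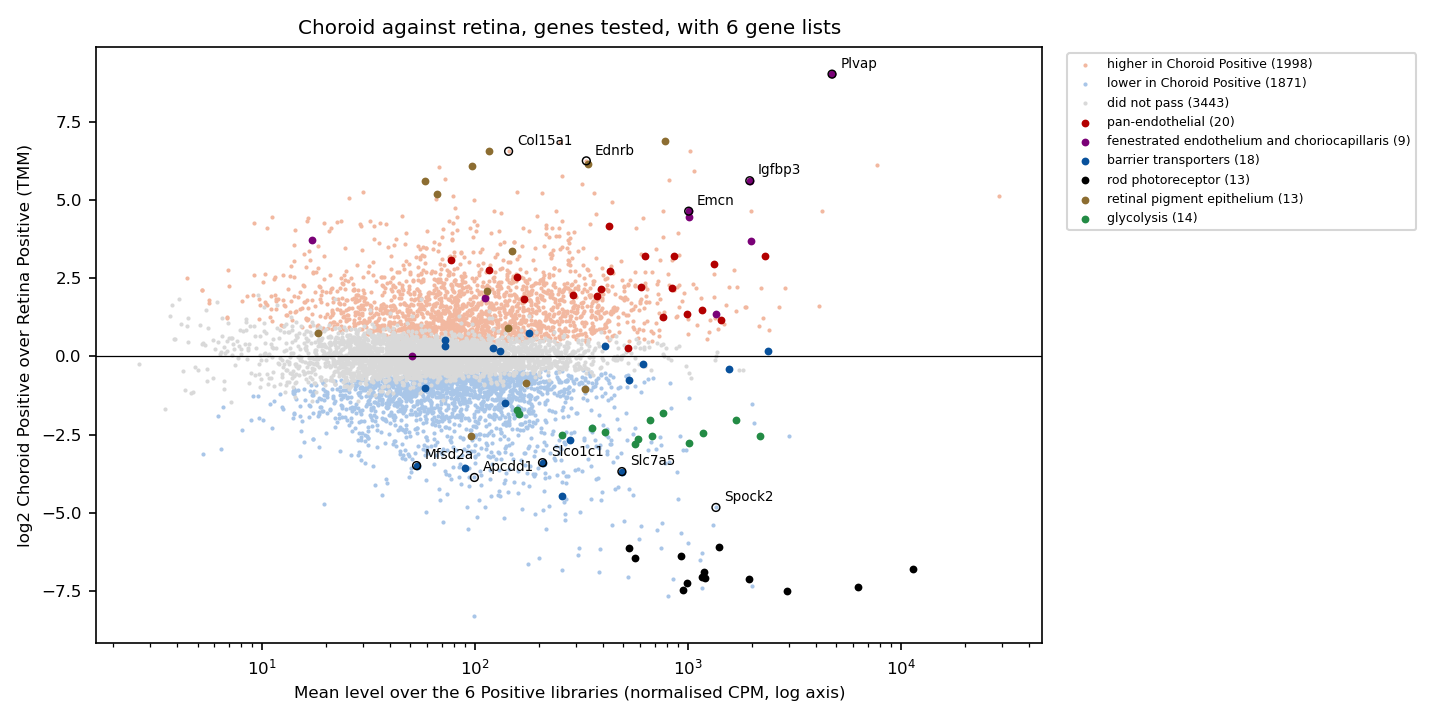
The log2 difference of Choroid Positive over Retina Positive under TMM scaling (vertical) against the mean level over the 6 libraries (horizontal, normalised CPM on a log axis), one point per tested gene, with 6 gene lists in strong colours and named genes circled. Fenestrated endothelium genes reach 9.02 (Plvap) at the top, glycolysis genes lie between -2.81 and -1.71, and rod photoreceptor genes lie between -7.51 and -6.10.

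Pan-endothelial genes themselves were not uniform. Under TMM, 19 of 20 were higher in Choroid Positive with a median of 2.18, and the one that did not pass was Eltd1 (Adgrl4) at 0.25 ± 0.35. Cdh5, vascular endothelial cadherin, whose promoter drives the recombinase, had 1612, 1121 and 1407 CPM in Choroid Positive and 214, 241 and 466 CPM in Retina Positive, a log2 difference of 2.17 ± 0.33 (adjusted p = 5.39e-04). The groups did not overlap, and retina replicate 3 was the highest retina library, as it was in the summed share of this list. With the list median set equal, 4 members were higher and 3 lower in Choroid Positive, or 6 and 6 without Retina Positive replicate 3. Clec14a, a lectin-like receptor of angiogenic endothelium, led those that were higher, with 899, 731 and 806 CPM in Choroid Positive, 37.6, 35.8 and 62.2 CPM in Retina Positive, and 1.89 ± 0.44 relative to the list. Eng, a co-receptor of the BMP pathway, Egfl7 and Mmrn2 followed at 1.00, 0.91 and 0.91, while Eltd1 was at -1.95, Ptprb at -1.05 and Tek, the angiopoietin receptor, at -0.96. Clec14a and Eltd1 kept these calls with any 1 library left out. Eng and Mmrn2 lost theirs without Choroid Positive replicate 1 or 3 or Retina Positive replicate 1 or 2, and Egfl7 also without Choroid Positive replicate 2, at 0.76 to 1.00. Tek lost its call without Choroid Positive replicate 2 or 3 or Retina Positive replicate 1 or 2, and Ptprb without the first 3 of these, at -1.06 to -0.81.

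Among barrier transporters, 7 of the 18 tested members were lower in Choroid Positive under TMM (38.9%, against 25.6% of all tested genes): Slc38a3, Slc7a5, Tfrc, Mfsd2a, Slco1c1, Slc16a1 and Slc7a1. The other 11 did not pass, among them Abcg2 at 0.76 and Slc52a3 at 0.51, and none was higher. Without Retina Positive replicate 3, 5 members were higher and 7 lower. The list median was -0.58, against -0.02 for all tested genes. Relative to pan-endothelial genes all 18 were lower, with a median of -2.81, in a fit where 85% of all tested genes were lower. By the pull-down, 14 of the 18 were enriched over Input in retina and 5 in choroid.

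Slc7a5, the light chain of the large neutral amino acid transporter, had 64.4, 59.9 and 87.0 CPM in Choroid Positive and 578, 724 and 1435 CPM in Retina Positive. The log2 difference was -3.68 ± 0.38 (adjusted p = 6.36e-05), with no overlap. Slco1c1, a transporter of thyroid hormone, had 32.6, 40.0 and 37.4 CPM in Choroid Positive and 312, 236 and 592 CPM in Retina Positive, a difference of -3.40 ± 0.36 (adjusted p = 8.03e-05). Its order was the reverse in whole tissue, where the log2 difference of Choroid Input over Retina Input was 4.72. Mfsd2a, a lipid transporter that restrains transcytosis in barrier endothelium, had 7.87, 3.33 and 12.7 CPM in Choroid Positive and 76.9, 61.8 and 158 CPM in Retina Positive, a difference of -3.49 ± 0.48 (adjusted p = 3.34e-04). All choroid libraries were again below all retina libraries.

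Slc7a5, Slco1c1 and Mfsd2a were pulled down in retina and lay below Input in choroid, at log2 Positive over Input of -1.93, -3.03 and -2.40. Slc38a3, Tfrc and Slc16a1 had no such enrichment in retina, at -0.09, -0.19 and 0.80, and the part of RNA from other retinal cells in their difference was not tested. Slc2a1, the glucose transporter GLUT1, did not pass: it had 1199, 1101 and 1722 CPM in Choroid Positive and 1221, 1359 and 2738 CPM in Retina Positive, and the groups overlapped at -0.40 ± 0.35 (adjusted p = 0.358).

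The genes pulled down in retina with the largest differences included several that are not transporters. Spock2, a secreted proteoglycan of the testican family, had 79.4, 93.2 and 105 CPM in Choroid Positive and 1985, 2211 and 3679 CPM in Retina Positive, a log2 difference of -4.83 ± 0.33 (adjusted p = 9.04e-06). Every retina library was above every choroid library by a wide margin, and the retina pull-down was 2.54 over Input on the log2 scale. The adhesion gene Tenm4, the cytolinker gene Dst, the chromatin remodelling gene Arid1b, the kinase gene Nlk and the deubiquitinase gene Usp34 differed by -3.93, -3.38, -3.38, -2.81 and -2.83. The matrix genes Sparcl1 and Fn1 differed by -2.48 and -2.41, whereas most other matrix genes were higher. In Retina Positive, Usp34 ranged from 337 to 1278 CPM and Arid1b from 488 to 1254 CPM, with replicate 3 highest, so these means are less precise than that of Spock2.

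Of the 13 tested genes of Wnt and beta-catenin signalling in barrier vessels, 6 were higher in Choroid Positive and 4 lower under TMM (all tested genes: 27.3% and 25.6%). On the pan-endothelial scale none was higher and 9 were lower, in a fit where 85% of all tested genes were lower. Lrp5, a co-receptor, was higher by 2.05 ± 0.37 (adjusted p = 0.00165), the Norrin co-receptor component Tspan12 by 2.46 ± 0.25 (adjusted p = 6.67e-05), and Fzd4, with 234, 64.9 and 204 CPM in Choroid Positive and 47.9, 53.0 and 122 CPM in Retina Positive, overlapped at 1.22 ± 0.47 (adjusted p = 0.0549). Choroid Positive replicate 2 was the low library for Fzd4, and without it the difference was 1.57 and passed (adjusted p = 0.0104). Relative to pan-endothelial genes Lrp5 and Tspan12 were at -0.17 and 0.20 and did not pass. The co-receptor gene Lrp6, the transcription factor gene Sox7, the beta-catenin gene Ctnnb1 and the forkhead gene Foxf2 were also higher under TMM, at 1.58, 2.36, 0.88 and 1.02, and Ctnnb1 and Foxf2 lost this call without Retina Positive replicate 1 (0.79 and 0.88) or 2 (0.78 and 0.89), Foxf2 also without Choroid Positive replicate 1 (0.71) or 3 (1.05). Gpr124 and Reck, which form a receptor complex for Wnt7 ligands, did not pass under TMM, at 0.09 and -0.39, and with Fzd4, Ctnnb1 and Foxf2 they were lower on the pan-endothelial scale. On that scale Fzd4 lost its call without Choroid Positive replicate 2 (-0.58) or 3 (-1.05) or Retina Positive replicate 2 (-1.06). Foxf2 lost its call there without Choroid Positive replicate 2 (-0.98) or 3 (-1.16). The 4 members lower under TMM were Apcdd1, Tnfrsf19, Axin2 and Nkd1. Apcdd1, a Wnt inhibitor, had 11.6, 13.3 and 13.9 CPM in Choroid Positive and 158, 147 and 255 CPM in Retina Positive, a difference of -3.87 ± 0.29 (adjusted p = 1.43e-05). The TNF receptor family gene Tnfrsf19 (TROY) was lower by 2.55 on the log2 scale, at 9.74, 15.0 and 19.9 CPM in Choroid Positive and 68.1, 68.2 and 118 CPM in Retina Positive (adjusted p = 3.83e-04). Axin2 and Nkd1, both feedback inhibitors, differed by -0.89 ± 0.32 and -1.40 ± 0.46 (adjusted p = 0.0438 and 0.0281). Axin2 lost its call without Choroid Positive replicate 1 (-0.65) or 2 (-0.83) or Retina Positive replicate 1 (-0.97) or 3 (-0.65), and Nkd1 without Choroid Positive replicate 3 (-1.24) or Retina Positive replicate 3 (-1.13). Without Choroid Positive replicate 2 the list had 7 higher and 3 lower, and without Retina Positive replicate 3 it had 7 and 2. The list median of 0.88 turns to -1.43 on the pan-endothelial scale, where the median of all tested genes was -2.41.

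Another 8 genes of that list are listed in the retina table alone, among them Foxq1, Sox17, Lef1 and Tcf7. Lef1 and Tcf7 encode transcription factors that bind beta-catenin, and they averaged 63.3 ± 19.2 and 27.9 ± 13.4 CPM in Retina Positive and 1.29 ± 0.585 and 1.48 ± 0.331 CPM in Retina Input (SD, n = 3 each). Sox17 averaged 81.8 ± 49.2 CPM in Retina Positive and 1.06 ± 0.273 CPM in Retina Input. A gene left out of a table had under 50 counts in at least 1 library of each fraction, and in the shallow choroid libraries that minimum is a high level, so no comparison between tissues was made for these genes.

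**Figure D3:**
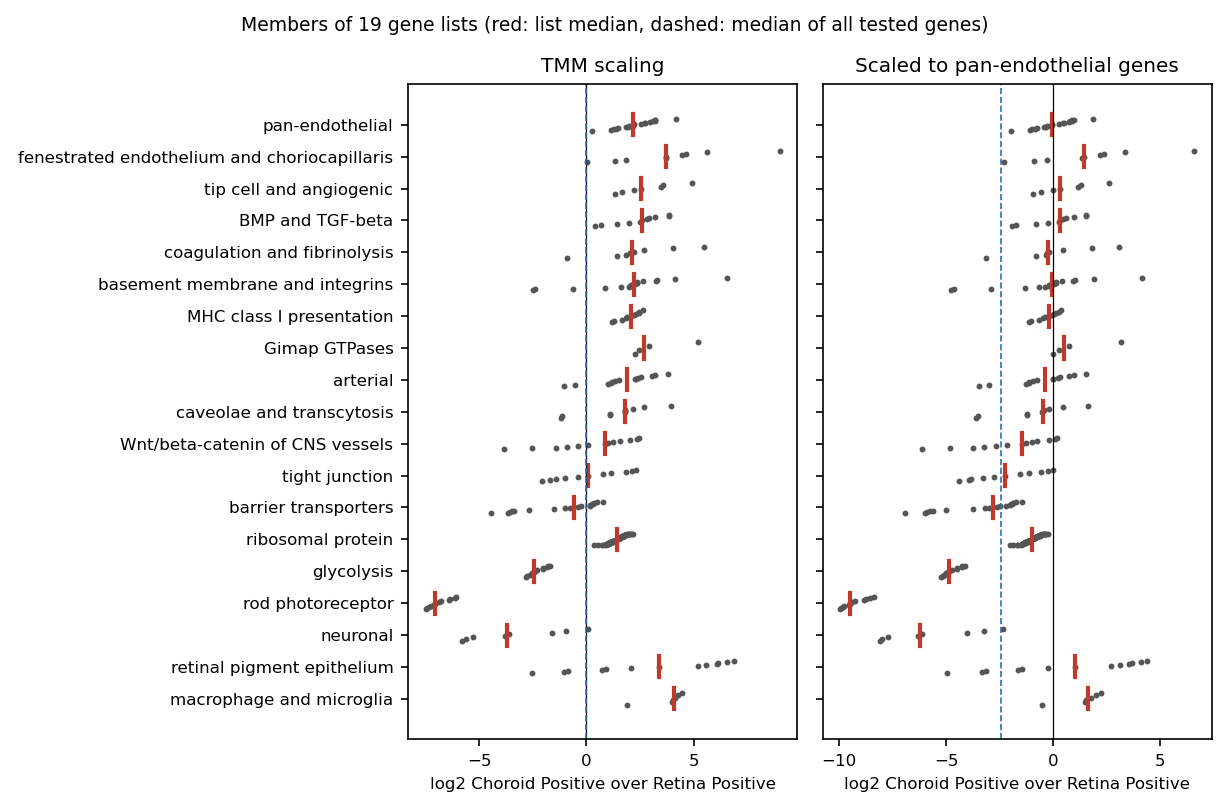
The log2 difference of Choroid Positive over Retina Positive for each tested member (points) of selected gene lists, under TMM scaling (left panel) and with pan-endothelial genes set equal (right panel), with list medians in red and the median of all tested genes dashed. The list of fenestrated endothelium keeps a median above 0 on both scales (3.72 and 1.45), the median of barrier transporters lies below 0 on both (-0.58 and -2.81), and the pan-endothelial, arterial and caveolae lists move from above 0 to near or below 0.

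Junction and vesicle genes were mixed. Among tight junction genes, 4 of 11 tested were higher and 4 lower under TMM (all tested genes: 27.3% and 25.6%). Their median of 0.07 turns to -2.22 on the pan-endothelial scale, where that of all tested genes was -2.41. Under TMM their median was -0.11, -0.08 and -0.02 without Choroid Positive replicate 1, Retina Positive replicate 1 and Retina Positive replicate 2. Cldn5, the main claudin of barrier vessels, had 1577, 1617 and 1611 CPM in Choroid Positive and 830, 774 and 1194 CPM in Retina Positive, a difference of 0.78 ± 0.23 under TMM (adjusted p = 0.0191) and of -1.53 ± 0.47 relative to pan-endothelial genes, where it was lower. Under TMM it lost its call without Retina Positive replicate 1 (0.69) or 2 (0.65). Ocln, occludin, was lower on both scales, at -2.08 ± 0.47 and -4.42 ± 0.51, with 30.0, 3.33 and 35.0 CPM in Choroid Positive and 83.1, 90.7 and 153 CPM in Retina Positive. F11r (JAM-A) was higher by 2.29 under TMM and at 0.02 on the other scale. Of the 10 genes of caveolae and transcytosis, 8 were higher and 1 lower under TMM, with a median of 1.79 that turns to -0.48. Cav1, the coat protein of caveolae, was higher by 1.82 ± 0.21 under TMM, and Ehd4, an ATPase of membrane trafficking, was higher on both scales, at 3.94 and 1.66.

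Most tested matrix and BMP signalling genes were higher in Choroid Positive under TMM, and fewer were on the pan-endothelial scale. Of 18 basement membrane and integrin genes, 12 were pulled down in choroid and 15 in retina. Under TMM 14 were higher and 2 lower, with a median of 2.21 that turns to -0.03 on the pan-endothelial scale. On that scale 4 members were lower and 4 were higher: Col15a1, Nid1, Hspg2 (perlecan) and Col18a1. The last 2 stood at 1.04 and 0.94 and lost that call without Choroid Positive replicate 1 (0.96 and 0.82) or 3 (0.92 and 0.87) or Retina Positive replicate 2 (0.99 and 0.77). Nid1, the linker protein nidogen, had 505, 301 and 496 CPM in Choroid Positive and 16.9, 16.0 and 42.6 CPM in Retina Positive and stood at 4.11 under TMM and 1.94 on the pan-endothelial scale. In the BMP and TGF-beta list, 10 of 11 tested genes were higher under TMM, with a median of 2.59. On the pan-endothelial scale 3 (Smad6, Tgfb1 and Eng) were higher and 2 lower, and 7 members were pulled down in each tissue. Smad6, an inhibitory Smad, and the ligand gene Tgfb1 stood at 3.85 and 3.83 under TMM and at 1.56 and 1.57 on the pan-endothelial scale.

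Genes of blood flow and haemostasis were higher under TMM as well. Of 8 coagulation and fibrinolysis genes, 7 were higher, with a median of 2.13 that turns to -0.22. F2r and Tfpi, the tissue factor pathway inhibitor, were the 2 that were higher on both scales, Tfpi at 4.05 and 1.84. All 7 tested genes of vascular tone were higher under TMM, and on the pan-endothelial scale, where the median was 0.02, Ednrb and Ace were higher while Nos3, endothelial nitric oxide synthase, and the endothelin gene Edn1 were lower, at -1.16 and -1.02. Edn1 lost its call under TMM without Choroid Positive replicate 1 or 3 (1.15 in each case), and the 2 calls on the pan-endothelial scale that were lower were both lost without Choroid Positive replicate 2 or 3, and that of Edn1 also without Retina Positive replicate 1. Among them Ace, angiotensin-converting enzyme, had 561, 390 and 464 CPM in Choroid Positive and 27.7, 21.6 and 33.6 CPM in Retina Positive, a difference of 4.09 ± 0.24. Ednrb, the endothelin B receptor, which melanocytes also make, differed by 6.25 ± 0.27, at 805, 588 and 588 CPM in Choroid Positive and 7.25, 8.26 and 10.5 CPM in Retina Positive. It was not pulled down in either tissue, at 0.31 in choroid and -0.19 in retina. Arterial genes were higher in 12 of 14 cases with a median of 1.88 that turns to -0.38, led by the connexin gene Gja5 at 3.82 under TMM.

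Genes of antigen presentation, antiviral response and leukocyte adhesion were followed as separate lists. All 11 tested genes of MHC class I presentation were higher under TMM, with a median of 2.09 that turns to -0.16, and none was higher on the pan-endothelial scale. Reads of H2 class I genes can be split between near-identical copies, so H2-K1 and H2-D1 at 2.32 and 2.21 are uncertain. Of 16 interferon-stimulated genes, 8 were higher and 2 lower under TMM (all tested genes: 27.3% and 25.6%). Their median of 0.99 turns to -1.25 on the pan-endothelial scale. There 1 was higher and 10 were lower, in a fit where 85% of all tested genes were lower, with a median of -2.41. Ifitm2, an antiviral membrane protein, was higher by 3.70, whereas Ifit1, an RNA-binding antiviral protein, was lower by 1.61 on the log2 scale, with 9.37, 6.66 and 21.7 CPM in Choroid Positive and 28.3, 29.7 and 63.4 CPM in Retina Positive, a call lost without Choroid Positive replicate 1 (-1.32) or Retina Positive replicate 3 (-1.14). The other one lower was Irf7, at -1.31. Icam1, an adhesion receptor for leukocytes, had 488, 341 and 558 CPM in Choroid Positive and 10.8, 14.8 and 30.1 CPM in Retina Positive, and was higher on both scales, at 4.64 ± 0.41 and 2.45 ± 0.46.

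RNA of other cell types moved with the comparison. Rod photoreceptor genes took 0.0577%, 0.0536% and 0.0341% of the Choroid Positive libraries and 6.96%, 8.10% and 4.82% of the Retina Positive libraries. They took 0.261% ± 0.0315 of Choroid Input and 7.07% ± 0.685 of Retina Input (SD, n = 3 each), and the values of Retina Positive and Retina Input overlapped. All 13 tested rod genes were lower in Choroid Positive, with a median of -7.05, and 4 of them (Prph2, Nrl, Gnat1 and Pde6g) were among the 8 well-expressed genes with the largest differences of this direction. Lrit2, the gene with the largest difference of this direction, had 3 counts in all over the Choroid Positive libraries, against 10540 in Retina Positive, and no fold is given for it. Neuronal genes were lower in 6 of 8 cases, with a median of -3.71.

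In the other direction, 9 of 13 genes of the retinal pigment epithelium and all 3 tested melanocyte genes were higher in Choroid Positive, with medians of 3.37 and 4.31. Rlbp1, Stra6 and Otx2 of the first list were lower. Rlbp1 lost this call without Choroid Positive replicate 1 (-0.95) or 3 (-0.89) or Retina Positive replicate 3 (-0.78), and Stra6 without Choroid Positive replicate 2 (-0.69) or 3 (-0.77) or Retina Positive replicate 3 (-0.61), so that Otx2 alone of the list was lower without Choroid Positive replicate 3 or Retina Positive replicate 3. Rpe65, the isomerase of the visual cycle, had 196, 355 and 144 CPM in Choroid Positive and 4.35, 1.01 and 1.57 CPM in Retina Positive, a log2 difference of 6.56 ± 0.57. Its level in Choroid Positive was below that in Choroid Input by 3.65 on the log2 scale, and none of the 13 genes was pulled down in choroid. The pigment epithelium list took 0.365% ± 0.0849 of Choroid Positive and 4.41% ± 1.08 of Choroid Input. Macrophage, fibroblast and erythroid genes were likewise higher under TMM (6 of 6, 3 of 3 and 2 of 2), and none was pulled down in choroid. Of the fibroblast genes, Pdgfra lost its call without Choroid Positive replicate 2 or Retina Positive replicate 2 or 3 (0.93 to 1.50) and Fbln1 without Choroid Positive replicate 1 (1.63) or Retina Positive replicate 1 (2.51), and the erythroid gene listed as Beta-s lost its call without Choroid Positive replicate 3 (1.69). Mural genes, which mark pericytes and smooth muscle, took 0.0177% ± 0.00754 of Choroid Positive and 0.10% ± 0.0188 of Retina Positive. They took 0.0860% ± 0.0276 of Choroid Input and 0.123% ± 0.0109 of Retina Input (SD, n = 3 each). A summed share follows the members with the most counts and does not stand for the list as a whole. By gene, the mural genes were mixed under TMM: 2 of the 6 tested were higher and 1 lower (all tested genes: 27.3% and 25.6%). Their median was 0.60, with a range of -4.19 to 3.63, and none was pulled down in either tissue. Another 5 members are listed in the choroid table alone and are not in these shares. The part of these other cells in the differences of genes not pulled down was not tested.

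**Figure D4:**
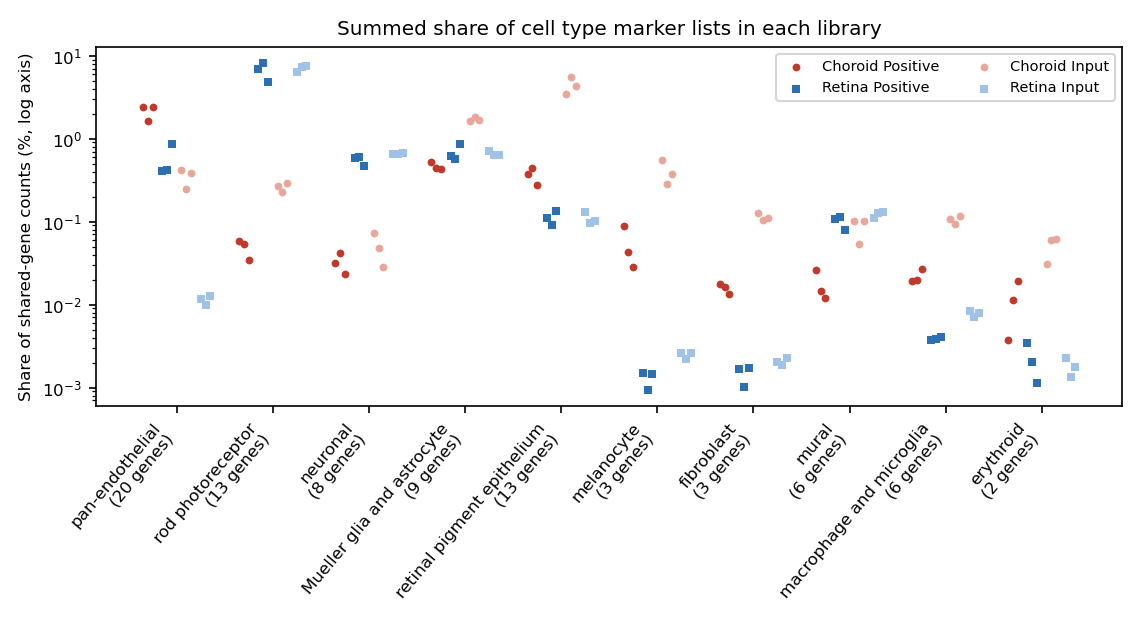
Summed share of shared-gene counts taken by cell type marker lists in each library (percent, log axis), for Choroid Positive, Retina Positive, Choroid Input and Retina Input. Rod photoreceptor genes take 4.82% to 8.10% of Retina Positive and at most 0.0577% of Choroid Positive, and pan-endothelial genes take 1.64% to 2.40% of Choroid Positive and 0.404% to 0.869% of Retina Positive.

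Some housekeeping classes differed as whole groups. All 14 tested glycolysis genes were lower in Choroid Positive, by 1.71 to 2.81 on the log2 scale, with a median of -2.43. Eno1, enolase, had 265, 321 and 197 CPM in Choroid Positive and 1823, 1717 and 1789 CPM in Retina Positive. None of these genes was pulled down in either tissue, and the median difference of the same genes between Choroid Input and Retina Input was -1.69. Ribosomal protein genes were higher in 79 of 81 cases, with a median of 1.41 that turns to -0.98 on the pan-endothelial scale and stood at 0.85 between the Inputs. Rpl10a, which carries the tag in the reporter, had 794, 1026 and 978 CPM in Choroid Positive and 294, 298 and 359 CPM in Retina Positive.

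Immediate early genes, which respond to stimuli within minutes, were higher in 8 of 9 cases, with a median of 2.03 that turns to -0.33. Dusp1, a phosphatase of stress kinases, had 544, 263 and 435 CPM in Choroid Positive and 57.4, 50.6 and 69.3 CPM in Retina Positive, and Btg2 was the one that was lower, at -0.73, a call lost without Choroid Positive replicate 1 (-0.50) or Retina Positive replicate 1 (-0.72) or 2 (-0.66). The nuclear transcript Malat1 was lower by 1.58 on the log2 scale and Neat1 was higher by 2.80. Gene length moved with the comparison: among the 1461 genes with the shortest exon sequence, 32.4% were higher and 16.5% lower in Choroid Positive, and among the 1460 with the longest, 21.2% were higher and 35.4% lower. The medians of these groups were 0.22 and -0.23 in the Positive fractions and 0.38 and -0.49 between the Inputs. The part of RNA integrity in these values was not tested.

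**Figure D5:**
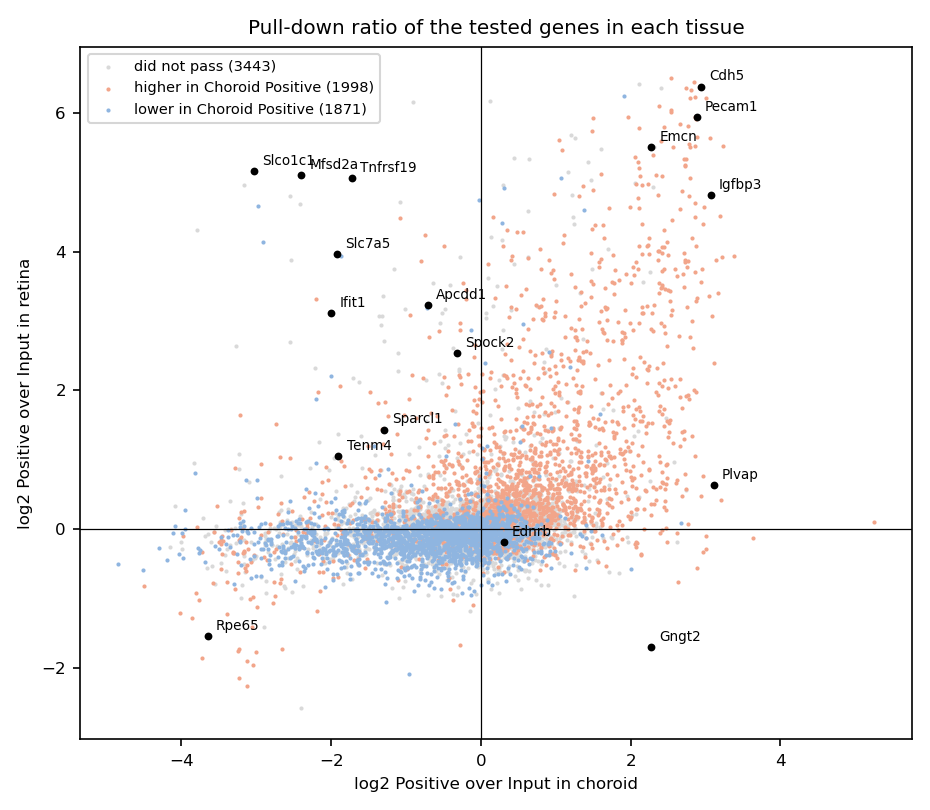
The log2 ratio of Positive over Input in choroid (horizontal) against that in retina (vertical) for each tested gene, coloured by its call in Choroid Positive over Retina Positive under TMM. Cdh5 stands at 2.94 in choroid and 6.38 in retina, Plvap at 3.11 and 0.63, and Slco1c1, Mfsd2a, Tnfrsf19 and Slc7a5 lie at the upper left, from -3.03 to -1.72 in choroid and from 3.97 to 5.16 in retina.

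Of the genes pulled down in both tissues, 417 in all, 380 were higher in Choroid Positive and 5 lower under TMM, with a median of 2.01. On the pan-endothelial scale 52 were higher, 91 lower and 274 did not pass, with a median of -0.25. The choroid table alone lists 256 genes, of which 18 were pulled down. Esm1, a proteoglycan of VEGF-stimulated endothelium, led them at 720 ± 91.7 CPM in Choroid Positive and 79.1 ± 21.9 CPM in Choroid Input (SD, n = 3 each). Cd300lg, a receptor of capillary endothelium, was at 624 ± 42.4 and 81.4 ± 27.2 CPM, and Gpihbp1, which carries lipoprotein lipase across capillaries, at 80.3 ± 26.5 and 7.48 ± 2.23 CPM, each with Positive before Input. No retina values were used for these genes. The retina table alone lists 5514 genes, of which 271 were pulled down, among them Foxq1 at 110 ± 32.9 CPM in Retina Positive and 1.46 ± 0.803 CPM in Retina Input and the flippase gene Atp10a at 127 ± 75.1 and 2.47 ± 0.581 CPM.

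The promoters of genes at both ends of the comparison are shown because members moved together and transcription factor motifs in them can be read directly. The windows are the 250 bases before the RefSeq start on GRCm38.p6, in lower case, with matches on either strand to CTTTGA, the core bound by the beta-catenin partners TCF and LEF, in capitals; AACAAT, a SOX core, and CCGGAAG, an ETS core, were also searched and had no match in these windows. Igfbp3 and Col15a1 were higher in Choroid Positive, and Mfsd2a, Spock2 and Slco1c1 were lower.
Igfbp3, chr11:7213924-7214173, minus strand: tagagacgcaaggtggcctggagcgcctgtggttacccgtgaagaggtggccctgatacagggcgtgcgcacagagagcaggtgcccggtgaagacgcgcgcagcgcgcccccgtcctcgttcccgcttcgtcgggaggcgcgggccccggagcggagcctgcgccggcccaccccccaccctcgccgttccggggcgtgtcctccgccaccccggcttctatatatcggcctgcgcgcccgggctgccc
Col15a1, chr4:47207762-47208011, plus strand: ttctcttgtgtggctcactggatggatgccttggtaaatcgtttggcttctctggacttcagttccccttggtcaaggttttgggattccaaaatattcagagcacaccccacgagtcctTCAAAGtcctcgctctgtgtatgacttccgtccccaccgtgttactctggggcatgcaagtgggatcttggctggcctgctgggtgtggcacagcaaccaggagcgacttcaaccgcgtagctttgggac
Mfsd2a, chr4:122961189-122961438, minus strand: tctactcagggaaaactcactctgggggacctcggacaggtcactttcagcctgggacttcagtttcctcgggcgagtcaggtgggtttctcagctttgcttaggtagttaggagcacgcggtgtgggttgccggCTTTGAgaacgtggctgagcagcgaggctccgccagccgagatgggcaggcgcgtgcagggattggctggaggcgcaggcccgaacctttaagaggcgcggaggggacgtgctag
Spock2, chr10:60106007-60106256, plus strand: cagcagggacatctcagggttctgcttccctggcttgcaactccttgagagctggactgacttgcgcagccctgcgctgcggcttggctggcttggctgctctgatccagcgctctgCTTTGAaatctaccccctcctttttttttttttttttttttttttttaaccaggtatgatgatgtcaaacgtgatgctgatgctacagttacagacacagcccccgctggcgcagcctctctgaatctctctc
Slco1c1, chr6:141524104-141524353, plus strand: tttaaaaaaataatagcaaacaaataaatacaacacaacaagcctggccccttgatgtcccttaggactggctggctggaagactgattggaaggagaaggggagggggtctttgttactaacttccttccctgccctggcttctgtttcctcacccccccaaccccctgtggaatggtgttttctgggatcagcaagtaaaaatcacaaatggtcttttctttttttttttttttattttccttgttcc
Col15a1, Mfsd2a and Spock2 each hold 1 match to the TCF and LEF core, and Igfbp3 and Slco1c1 hold none. Among tested genes with a window in the table, 5899 of 7312, the core was found in 9.98%. It was found in 13.8% of all windows in the table. The SOX core was found in 4.76% of the windows of tested genes and the ETS core in 14.5%. Windows were found for 78.8% of the genes higher in Choroid Positive and pulled down in choroid, against 80.7% of all tested genes. They were found for 75% of those lower and pulled down in retina, 27 of 36 genes. Whole groups were not compared, since they were picked from these data and the second holds few windows.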

How the data were processed

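The series measured RNA of brain, choroid and retina from NuTRAP mice in Input and Positive fractions, 3 libraries per group, made with a directional kit per the labels. The deposited raw columns are estimated counts per gene from the authors, and per the file headers a gene is listed where all libraries of 1 of the 2 fractions reached 50. The deposited normalized columns are log2 values centred per gene by the authors and were not used. The build is mm10, and DESeq is named without a version, per the submitters' processing notes; no source used here gives the aligner, the counting program or the use of strand. Both tables were filtered separately, so anything that differed in processing between them cannot be told apart from tissue.

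Estimated counts were rounded to whole numbers and the shared genes of the 6 Positive libraries were fitted together with edgeR 4.0.16 (filterByExpr with a minimum count of 10, TMM, quasi-likelihood test, Benjamini-Hochberg adjustment, 4 residual degrees of freedom) in R 4.3.3. A second fit scaled libraries by the median ratio over 20 pan-endothelial genes. Log2 ratios of Positive over Input and between Inputs are of mean CPM plus 0.5, within a tissue and between the tissues' Inputs, with no test. Alternatives used limma 3.58.1 and DESeq2 1.42.0, other scalings and filters, a replicate block, all 12 libraries, and single libraries left out. The scripts were tested on simulated data.

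The comparison and the 48 gene lists were chosen with earlier results of these data known. Genes named are, among genes past the test without overlap and at or above the median level, the 8 with the largest difference each way, the 12 among genes pulled down, the 8 on the pan-endothelial scale, and of each list the first 2 and the 2 with the largest difference. Vegfb, Car4, Eltd1, Ptprb, Eng, Egfl7, Tfrc, Slc16a1, Slc7a1, Tspan12, Axin2, Nkd1, Hspg2, Col18a1, Irf7, Stra6, Otx2, Btg2, Xist, Rn45s, Lars2, Ctnnb1, Klf9, some other list members and the genes listed in 1 table alone were named after their values were seen. Near-identical genes may share reads. Exon lengths are of 7301 of 7312 genes.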

Additional observations from a re-analysis of the deposited data

Results flagged for a closer look

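For 9 of the 166 named genes, the Positive over Input ratio had opposite directions in the 2 tissues, with all 3 Positive values on one side of all 3 Input values in each tissue and at least a 2-fold difference of means. The same held for 54 of all 7312 tested genes. Part of the named genes were picked for being pulled down in the tissue where they were higher, so the 2 shares cannot be compared. The difference between the tissues' ratios was not tested. Among them were 3 transporters of barrier endothelium that were below Input in choroid and above it in retina: the log2 ratio was -2.40 in choroid and 5.10 in retina for Mfsd2a, -3.03 and 5.16 for the thyroid hormone transporter gene Slco1c1, and -1.93 and 3.97 for the amino acid transporter gene Slc7a5. The Wnt-linked receptor gene Tnfrsf19 stood at -1.72 in choroid and 5.06 in retina, the matrix gene Sparcl1 at -1.29 and 1.43, and the adhesion gene Tenm4 at -1.91 and 1.05. The antiviral genes Ifit1 and Ifit3 stood at -2.0 and -1.71 in choroid and at 3.11 and 2.17 in retina. Gngt2, a transducin subunit gene of cones, went the other way, at 2.27 in choroid and -1.70 in retina. Groups of 3 libraries are too small to test a single library for standing apart.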

How the results depend on the processing

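Alternatives to the TMM fit used DESeq2 size factors, which shift log2 differences by 0.02, other filters and tests, or all 12 libraries. They gave 1941 to 2230 genes higher in Choroid Positive and 1826 to 2170 lower, against 1998 and 1871. Leaving out 1 library gave 1518 to 2108 higher and 1419 to 2112 lower. Asking for at least 2-fold as well left 1442 higher and 1211 lower, by its construction. An adjusted p under 0.01 by the same test left 1465 higher and 1303 lower. Relative to pan-endothelial genes, leaving out 1 library gave 100 to 153 higher and 5838 to 6537 lower, against 141 and 6216. A replicate block gave 1889 higher and 1820 lower under TMM, and 154 and 6270 relative to pan-endothelial genes. Libraries sharing a number did not deviate together (correlations -0.12, 0.11 and 0.10). With 3 libraries per group this cannot show whether equal numbers mean the same animals. The main fit did not take the numbers as pairs, and the replicate block did. Of 171 called genes among the 186 followed one by one under TMM, 157 kept their call under every alternative run and 14 lost it under at least 1; on the pan-endothelial scale 98 of 123 kept it and 25 lost it. No direction was reversed among these genes within either scale. Between the 2 scales some were. Tek, Ptprb, Cldn5, Foxf2, Nos3 and Edn1, for example, were higher under TMM and lower on the pan-endothelial scale. Some list members named in the text, Ctnnb1 and Klf9 among them, were not part of the 186. The shallow Choroid Positive libraries limit low genes: replicate 2 had under 10 counts for 610 shared genes.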

Other observations

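Some gene groups not described above are given here on both scales. The change of scale shifts every gene by nearly the same amount, -2.32 on the log2 scale. The median of all tested genes goes from -0.02 to -2.41. All 5 tested forkhead genes and all 6 Klf genes were higher in Choroid Positive under TMM, with medians of 1.53 and 2.05 that turn to -0.75 and -0.23 on the pan-endothelial scale. Foxf2 lost this call without Choroid Positive replicate 1 or 3 or Retina Positive replicate 1 or 2 (0.71 to 1.05), and Klf9 without any 1 library other than Choroid Positive replicate 1 (0.44 to 0.65). Of 14 endothelial transcription factors of the SoxF, ETS and related families, 13 were higher, with a median of 1.80 that turns to -0.45. The 4 tested Gimap GTPase genes were all higher, with a median of 2.69 under TMM and 0.52 on the pan-endothelial scale, where Gimap4 passed at 3.17. Of 9 genes of fatty acid and lipoprotein uptake, 3 were higher and 5 lower under TMM (all tested genes: 27.3% and 25.6%). Their median was -0.75 under TMM and -3.08 on the pan-endothelial scale.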
